A study of Mus musculus with 20 samples.

Results

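The genes described here are the collagens and the structural matrix of the mouse ovary. They were taken as every protein-coding gene of the annotation whose symbol is Col, a number, a and a number, together with Dcn, Lum, Fmod, Ogn, Bgn, Olfml2b, Fn1, Sparc, Postn, Eln, Fbn1, Lox, Loxl1 and Loxl2. This gave 58 genes, 44 collagens and 14 other matrix genes, of 54838 genes in the count tables, 21998 of which are protein-coding. The rule uses symbols and the gene type only, but the genes were chosen with earlier results of these data known. Their shares beside those of all tested genes are therefore a description.

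Ovaries of the Dummerstorf mouse lines ctrl and FL1 were measured by 3' mRNA-Seq, in which 1 read is counted near the poly(A) end of a transcript. Both lines descend from the same outbred stock. FL1 was selected over many generations for litter size and litter weight, and ctrl, whose genotype label is WT, was kept without selection. The females were aged 77 days, and each line was taken in estrus and in diestrus, which made 4 groups of 5 libraries, 1 per animal. Both lines are outbred, so the animals of a group differ in genotype, and a single selected line has no second selected line beside it: selection and drift in FL1 cannot be told apart. The stage was set by vaginal smears. Fat, oviduct and Tunica albuginea, the collagen-rich capsule of the ovary, had been taken off before the RNA was extracted, so the values are of the inner tissue and of what was left of the capsule.

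The libraries held 5991223 to 10352718 counts (median 6957533). Values below are CPM, counts relative to the size of the library, with TMM scaling over the 20 libraries. A 3' read count does not grow with transcript length. Whether the 3' ends of different genes are caught equally well was not checked, so levels are compared between genes as CPM only. Values of a group stand in the order of replicates 1 to 5. Among ovarian markers Foxl2 (184 to 551 CPM), Zp3 (24.2 to 68.8 CPM) and Cyp17a1 (4.15 to 977 CPM) were counted in every library, while Amh had no count in 11 libraries and at most 6 counts in the others. The oviduct markers Ovgp1 and Foxj1 together reached at most 3.61 CPM. Replicate 5 of ctrl in estrus stood apart: its mean correlation with its group was 0.937 (log2 CPM over all genes), against 0.954 to 0.971 in the other 19 libraries. Without it, all 16 calls among these genes that rest on ctrl in estrus stayed below an adjusted p of 0.05, in the same direction.

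Collagens are secreted proteins wound from alpha chains into a helix. The fibrillar types I, III and V form the cables of the ovarian stroma and the theca, type IV forms the sheet of the basement membranes around follicles and vessels, and type VI forms fine beaded filaments between them. Small leucine-rich proteoglycans coat the fibrils and set their spacing, and lysyl oxidases tie collagen and elastin chains together. In the ovary this matrix is taken down and rebuilt at each cycle as follicles grow and rupture and corpora lutea form and regress.

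The 58 genes took a mean of 0.858% ± 0.0693 of all counts in ctrl in diestrus, 0.798% ± 0.0829 in FL1 in diestrus, 1.26% ± 0.138 in ctrl in estrus and 1.15% ± 0.121 in FL1 in estrus (SD, n = 5). The lowest estrus library, at 1.03%, lay above the highest diestrus library, at 0.941%. Sparc, the gene of osteonectin, was the strongest expressed of them and made up 41.2% of their summed CPM in FL1 in diestrus and 33.2% in ctrl in estrus. Fibrillar collagens made up 24.4% in FL1 in diestrus and 31.3% in FL1 in estrus. By mean CPM over the 20 libraries Sparc (3720 CPM) was followed by Col1a2 (1033 CPM), Col3a1 (973 CPM), Dcn (664 CPM), Col1a1 (629 CPM) and Col4a1 (559 CPM). All libraries of Sparc lay above those of these genes, its lowest standing at 2450 CPM and their highest at 1822 CPM, whereas Col1a2 and Col3a1 overlapped over the libraries, as did Dcn, Col1a1 and Col4a1.

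In all, 12 genes were too low for the filter of the edgeR test in every comparison: Col2a1, Col7a1, Col9a1, Col9a3, Col10a1, Col11a2, Col17a1, Col19a1, Col20a1, Col24a1, Col25a1 and Col28a1. Their highest count in a library was 24, in Col24a1. Between 43 and 46 of the 58 passed the filter on low counts in each comparison, and counts of genes below refer to those. The lowest of the tested collagens were Col22a1 (mean 1.16 CPM) and Col4a3 (mean 1.71 CPM).

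The first question of the design is how the ovary in estrus differs from the ovary in diestrus within each line. The fibrillar chains Col1a1, Col3a1, Col5a1 and Col5a2, the cross-linking genes Lox, Loxl1 and Loxl2 and the basement membrane chains Col4a1 and Col15a1 were stronger expressed in estrus in both lines, and Col11a1 and Col6a4 were weaker expressed in both. In ctrl, 12 of 45 tested genes were stronger and 2 weaker expressed in estrus, where 1.78% and 1.06% of all 13334 tested genes were. In FL1, 21 of 43 were stronger and 4 weaker expressed, where 7.42% and 8.49% of all 13350 tested genes were. The counts of role groups and markers between the stages given below are to be read beside these shares of each line. Libraries of the 2 stages did not overlap in 12 of 45 genes in ctrl and in 18 of 43 in FL1, beside 4.51% and 12.2% of all tested genes. For each gene without overlap the exact two-sided permutation p was 0.00794, the smallest that 5 against 5 libraries can give.

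A gene was called by edgeR's quasi-likelihood test where p, adjusted by the Benjamini-Hochberg method over all tested genes, was 0.05 or less. The median log2FC of the tested genes, estrus against diestrus, was 0.27 in ctrl and 0.26 in FL1, beside -0.01 in ctrl and 0.01 in FL1 over all tested genes. Leaving out replicate 4 of ctrl in diestrus brought the 14 calls in ctrl to 9. The numbers of the 2 lines lay closer in other tools. DESeq2 called 18 stronger and 3 weaker in ctrl and 22 and 4 in FL1. With limma-voom these were 17 and 3 in ctrl and 22 and 4 in FL1. An unadjusted p under 0.05 by edgeR was found for 20 stronger and 5 weaker in ctrl and for 23 and 8 in FL1. In whole ovaries a change in the number of cells of a type and a change in the RNA of each cell cannot be told apart. Markers of other cells moved with the stage as well. The summed CPM of 6 stromal fibroblast markers (Pdgfra, Pdgfrb, Tcf21, Dpt, Pi16, Mfap5) was 177 to 270.4 in ctrl in diestrus and 255 to 366 in ctrl in estrus, and 163 to 228 and 235 to 366 in FL1. Of these, 5 were tested and Dpt, Pdgfra and Mfap5 rose in estrus in both lines (Mfap5 is also among the elastic fibre partners below). The 5 smooth muscle markers summed to 712 to 1294 CPM in ctrl in diestrus and 1176 to 1617 CPM in ctrl in estrus, and to 822 to 1351 and 1175 to 1539 CPM in FL1, with 2 of 5 called higher in ctrl and 3 of 5 in FL1. The 5 theca markers, with Insl3 at 0 in 17 libraries, summed to 11331 to 18901 CPM in ctrl in diestrus and 6210 to 17581 CPM in ctrl in estrus, and to 16445 to 20770 and 5586 to 12528 CPM in FL1, with 1 of 4 tested genes lower in estrus in ctrl and 3 of 4 in FL1. This sum was mostly Cyp11a1 (3682 to 13655 CPM) and Star (800 to 8012 CPM), while Cyp17a1 reached 977 and Ptch1 96.9 CPM, so it says little of the theca alone. In ctrl 1 of the 4 was higher in estrus at an unadjusted p under 0.05, and limma-voom called 1 higher. Granulosa markers fell in 1 of 5 genes tested in ctrl and 3 of 5 in FL1, luteal markers rose in 1 and fell in 1 of 4 in ctrl and rose in 1 and fell in 2 of 4 in FL1, and macrophage markers rose in 1 of 4 in ctrl. In FL1 3 of 5 endothelial and 3 of 3 blood genes fell and 3 of 5 surface epithelium genes rose. In ctrl 3 of 3 blood genes also had an unadjusted p under 0.05 for a lower level in estrus, at a median log2FC of -0.95, beside -1.07 in FL1. The interaction was called for 0 genes of these lists by edgeR, DESeq2 and limma-voom. Its unadjusted p was under 0.05 in 3 endothelial, 3 surface epithelium and 0 blood genes. Fat and oocyte markers were not called by edgeR in either line. Of the 3 fat markers tested in FL1, 1 had an unadjusted p under 0.05 and was called by limma-voom as higher in estrus. Of the 4 oocyte markers 0 had an unadjusted p under 0.05 in either line, and DESeq2 and limma-voom called 0. What part these markers' cells have in the collagen values was not tested.

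**Figure D1:**
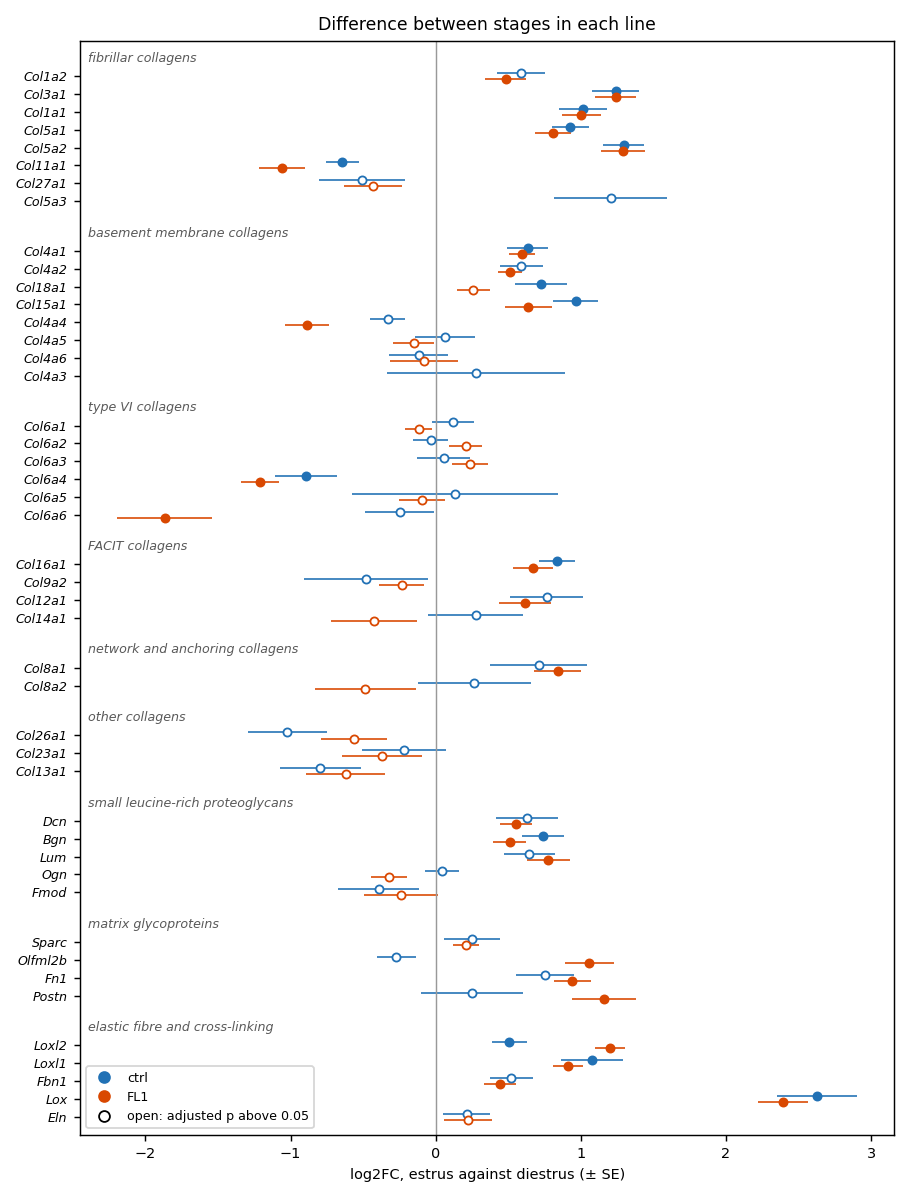
Log2FC of estrus against diestrus (x axis) for each tested gene (y axis, in role groups), with the SE as bars, in ctrl (blue) and FL1 (orange); filled points passed an adjusted p of 0.05. The points of the 2 lines lie near each other for most genes, with Lox farthest to the right at 2.63 in ctrl and 2.39 in FL1.

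Among the fibrillar collagens, 4 of 8 tested genes were stronger and 1 weaker expressed in estrus in ctrl, and 5 of 7 stronger and 1 weaker in FL1. Col3a1, the chain of type III collagen (chromosome 1, bases 45311538 to 45349706, + strand), stood at 554, 573, 626, 533 and 617 CPM in ctrl in diestrus and at 1102, 1229, 1698, 1822 and 1024 CPM in estrus. In FL1 it was at 582, 608, 535, 469.9 and 682 CPM in diestrus and at 979, 1257, 1264, 1815 and 1488 CPM in estrus. Every estrus library lay above every diestrus library, by a log2FC of 1.24 ± 0.16 (SE, adjusted p = 0.00167) in ctrl and a log2FC of 1.24 ± 0.14 (SE, adjusted p = 1.76e-05) in FL1. Col1a1, the first chain of type I collagen (chromosome 11, bases 94936224 to 94953042, + strand), was at 509.9, 418, 479, 354 and 523 CPM in ctrl in diestrus and at 765, 762, 964, 1306 and 824 CPM in estrus. In FL1 it held 429.9, 365, 330, 282 and 476 CPM in diestrus and 642, 679, 787, 944 and 732 CPM in estrus. Again no estrus library reached down to diestrus, and the difference was a log2FC of 1.01 ± 0.16 (SE, adjusted p = 0.00601) in ctrl and a log2FC of 1.004 ± 0.13 (SE, adjusted p = 9.33e-05) in FL1. Its partner chain Col1a2 (chromosome 6, bases 4504814 to 4541544, + strand) held 792, 856, 873, 703 and 1015 CPM in ctrl in diestrus and 1056, 1288, 1534, 1615 and 883 CPM in estrus. The FL1 ovaries stood at 944, 934, 743, 646 and 918 CPM in diestrus and at 837, 1053, 1314, 1487 and 1163 CPM in estrus. The stages overlapped in both lines, with ctrl estrus 5 (883 CPM) inside the diestrus range. Col1a2 rose by a log2FC of 0.48 ± 0.14 (SE, adjusted p = 0.0280) in FL1 and did not pass in ctrl at a log2FC of 0.59 ± 0.17 (SE, adjusted p = 0.0831). It passed in ctrl in DESeq2, limma-voom, the filter of at least 1 count in total and 1 fit of all 20 libraries (adjusted p of 0.0170 to 0.0444). Without ctrl estrus 5 the ctrl value was 0.69 with an adjusted p of 0.0187. The call in FL1 was lost without FL1 diestrus 3 or 4 or FL1 estrus 3 or 4 (adjusted p up to 0.0828), in 1 fit of all 20 libraries and with the replicate number as a block.

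Type V collagen, which starts and thins the type I fibrils, moved with them. Col5a1 stood at 53.7, 47.9, 56.3, 53.2 and 61.5 CPM in ctrl in diestrus and at 75.1, 101, 110.5, 125 and 108 CPM in estrus. In FL1 it was at 56.1, 55.4, 48.1, 39.4 and 61.6 CPM in diestrus and at 69.6, 96.8, 90.2, 106 and 94.7 CPM in estrus. All estrus libraries were above all diestrus libraries, by a log2FC of 0.93 ± 0.13 (SE, adjusted p = 0.00275) in ctrl and a log2FC of 0.81 ± 0.13 (SE, adjusted p = 0.000347) in FL1. Col5a2, which lies tail to tail with Col3a1 on chromosome 1 with 24614 bases between the genes, was at 38.4, 46.9, 49.2, 35.4 and 45.8 CPM in ctrl in diestrus and at 87.3, 107, 114, 135 and 87.0 CPM in estrus. In FL1 Col5a2 held 45.0, 41.4, 35.6, 27.7 and 50.7 CPM in diestrus and 77.1, 88.1, 116, 118 and 90.8 CPM in estrus. The stages did not overlap, at a log2FC of 1.29 ± 0.14 (SE, adjusted p = 0.000483) in ctrl and a log2FC of 1.29 ± 0.15 (SE, adjusted p = 2.66e-05) in FL1. Col11a1, a minor fibrillar chain best known from cartilage (chromosome 3, bases 114030540 to 114220718, + strand), went the other way. In ctrl it held 62.2, 59.4, 61.3, 58.8 and 48.4 CPM in diestrus and 40.4, 35.2, 38.7, 30.9 and 41.2 CPM in estrus. In FL1 Col11a1 stood at 85.4, 78.4, 93.9, 98.3 and 56.4 CPM in diestrus and at 45.5, 46.5, 38.3, 42.3 and 26.5 CPM in estrus. No estrus library reached the diestrus libraries of its line, and Col11a1 fell by 0.64 ± 0.12 (SE, adjusted p = 0.0104) on the log2 scale in ctrl and by 1.06 ± 0.16 (SE, adjusted p = 0.000258) in FL1. Col27a1, at a mean of 20.3 CPM, did not pass in either line, at a log2FC of -0.51 ± 0.30 in ctrl and -0.43 ± 0.20 in FL1 (SE).

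**Figure D2:**
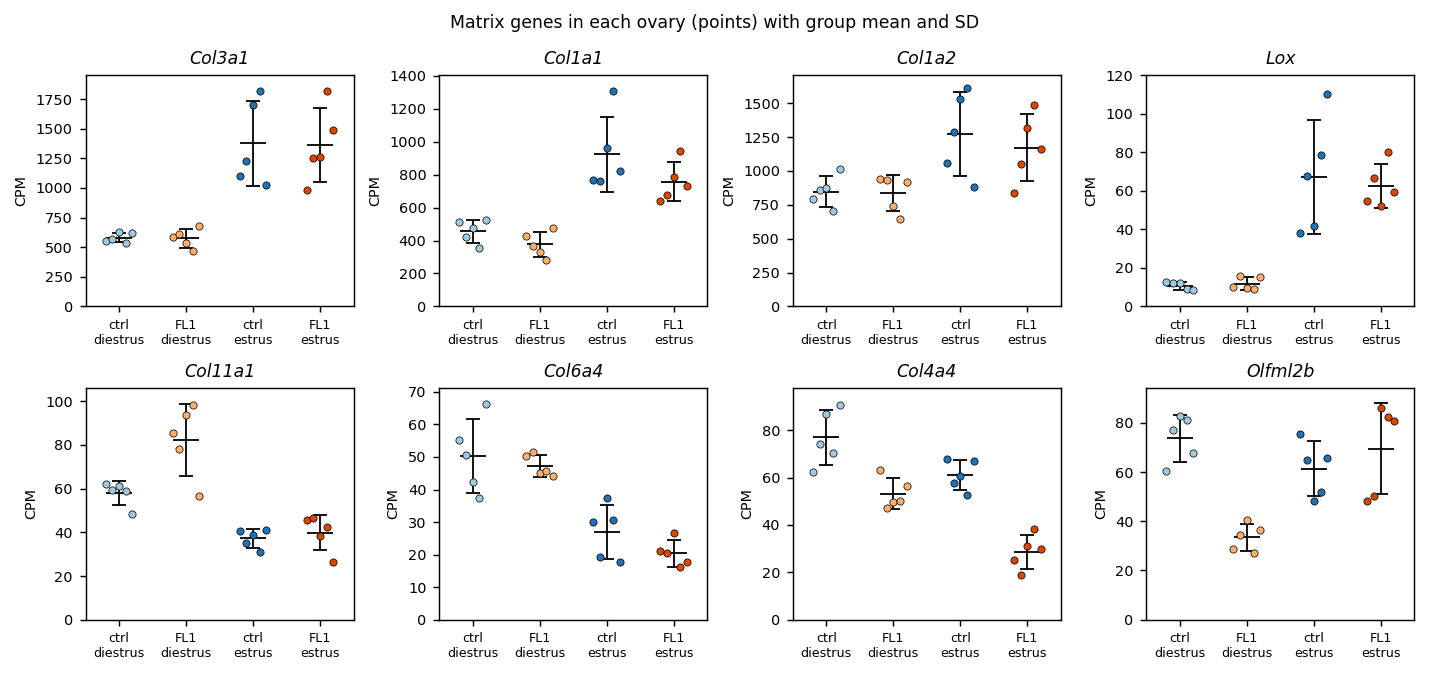
CPM (y axis, linear from 0) of 8 genes in the 20 ovaries, by group on the x axis; points are libraries, the horizontal mark is the mean and the bars the SD of 5 libraries. Col3a1, Col1a1 and Lox stand higher in estrus in both lines, Col11a1 and Col6a4 lower, and Col4a4 is lowest in FL1 in estrus.

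The bases before the start sites of Col3a1, which rose in estrus, of Col11a1, which fell, and of Olfml2b, the gene with an interaction of line and stage, are given to show what lies there. RefSeq windows (GRCm38.p6) were found for 42 of the 58 genes, and 250 bases before the start were read. The stretch between the starts of Col4a4 and Col4a3, which face away from each other, is given as well. Capitals mark TATAAA, the letters of the TATA box, CCAAT, those of the CCAAT box, and GGGCGG, those of the GC box, read on either strand.
Col3a1, chr1:45311288-45311537, + strand: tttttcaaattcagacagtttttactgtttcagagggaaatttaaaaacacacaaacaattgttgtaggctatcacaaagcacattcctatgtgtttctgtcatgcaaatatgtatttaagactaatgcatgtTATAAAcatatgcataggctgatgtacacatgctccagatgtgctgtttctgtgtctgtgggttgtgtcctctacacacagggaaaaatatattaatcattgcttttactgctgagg
Col11a1, chr3:114030290-114030539, + strand: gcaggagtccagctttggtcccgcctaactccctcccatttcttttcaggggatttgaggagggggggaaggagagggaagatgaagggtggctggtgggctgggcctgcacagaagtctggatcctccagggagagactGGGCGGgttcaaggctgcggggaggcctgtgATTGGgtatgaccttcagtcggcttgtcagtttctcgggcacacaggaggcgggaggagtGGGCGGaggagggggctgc
Olfml2b, chr1:170644282-170644531, + strand: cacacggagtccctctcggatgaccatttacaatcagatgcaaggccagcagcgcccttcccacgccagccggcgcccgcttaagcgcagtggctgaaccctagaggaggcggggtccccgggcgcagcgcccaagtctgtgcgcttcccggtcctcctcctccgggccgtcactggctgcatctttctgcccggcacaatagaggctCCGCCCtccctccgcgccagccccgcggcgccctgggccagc
Col4a4 to Col4a3, chr1:82586850-82586920, - strand: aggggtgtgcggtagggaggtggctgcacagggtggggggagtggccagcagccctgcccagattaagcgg
The Col3a1 window held 1 TATAAA, the Col11a1 window held GGGCGG at 2 places and CCAAT on the reverse strand at 1, and the Olfml2b window held GGGCGG on the reverse strand at 1. The 71 bases between Col4a4 and Col4a3 held none of these letters. Over the 32851 windows of the other chromosomes TATAAA was found in 12.4%, CCAAT in 33.9% and GGGCGG in 32.7%, on either strand. Over the 46 windows of the 42 genes, some of which have several starts, they were found in 7, 13 and 25. These are matches of letters and not sites shown to be bound.

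Of the basement membrane collagens, 3 of 8 tested genes were stronger expressed in estrus in ctrl, and 3 of 7 were stronger and 1 weaker expressed in FL1. Col4a1 and Col4a2 encode the chains of the common type IV network and lie head to head on chromosome 8, their starts 21 bases apart. Col4a1 stood at 372, 526, 524, 458 and 462 CPM in ctrl in diestrus and at 570.2, 773, 630.2, 759 and 909 CPM in estrus. The FL1 libraries were at 427, 425, 421, 346 and 448 CPM in diestrus and at 559, 577, 657, 699 and 633 CPM in estrus. The stages did not overlap in either line, at a log2FC of 0.63 ± 0.14 (SE, adjusted p = 0.0306) in ctrl and a log2FC of 0.60 ± 0.09 (SE, adjusted p = 0.000258) in FL1. The ctrl call was lost without ctrl diestrus 1, 4 or 5 or ctrl estrus 2 or 4 (adjusted p up to 0.0821). The end of Col4a1 overlaps the gene Gm15418 on the other strand, and the strand setting of the counting is not given in the sources used here. Col4a2 was at 205, 276, 262.6, 237 and 241 CPM in ctrl in diestrus and at 275, 352, 328, 387 and 502 CPM in estrus. In FL1 Col4a2 held 228, 219, 209, 188 and 239.7 CPM in diestrus and 319, 275, 345, 308 and 301 CPM in estrus. The FL1 stages did not overlap and differed by a log2FC of 0.51 ± 0.09 (SE, adjusted p = 0.000610), and in ctrl the value was a log2FC of 0.59 ± 0.15 (SE, adjusted p = 0.0530), just outside the threshold. Col4a2 passed in ctrl under 5 of the 7 other settings, in DESeq2, limma-voom, both other filters on low counts and 1 fit of all 20 libraries, with adjusted p of 0.00459 to 0.0470.

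Col15a1 and Col18a1, collagens at the outer face of basement membranes, Col18a1 being the source of endostatin, followed in part. Col15a1 held 52.9, 44.7, 53.9, 41.7 and 36.4 CPM in ctrl in diestrus and 68.2, 86.2, 102, 114 and 78.6 CPM in estrus. In FL1 Col15a1 stood at 44.9, 37.2, 34.7, 30.2 and 55.4 CPM in diestrus and at 44.3, 64.8, 74.9, 75.0 and 56.3 CPM in estrus. It rose by a log2FC of 0.96 ± 0.15 (SE, adjusted p = 0.00542) in ctrl, where the stages did not overlap, and by a log2FC of 0.64 ± 0.16 (SE, adjusted p = 0.0141) in FL1, where they did. Col18a1 stood at 46.2, 68.4, 52.5, 53.1 and 54.2 CPM in ctrl in diestrus and at 71.4, 73.1, 75.0, 100.2 and 136 CPM in estrus. In FL1 it was at 67.6, 53.0, 65.8, 51.2 and 74.1 CPM in diestrus and at 64.9, 72.6, 73.9, 72.3 and 88.7 CPM in estrus. In ctrl the difference was a log2FC of 0.73 ± 0.18 (SE, adjusted p = 0.0468), with the highest diestrus library at 68.4 CPM and the lowest estrus library at 71.4 CPM, and in FL1 it did not pass at a log2FC of 0.26 ± 0.11 (SE, adjusted p = 0.140). That ctrl call was lost without ctrl diestrus 1, 3, 4 or 5 or ctrl estrus 2, 3 or 4 (adjusted p up to 0.117) and with the replicate number as a block, and the end of Col18a1 overlaps Slc19a1 on the other strand. Col4a3, Col4a5 and Col4a6 were not called between the stages in any fit that tested them.

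In Col4a4, a chain of the type IV network known from the kidney filter (chromosome 1, bases 82448423 to 82586849, - strand), the stage difference was called in FL1. It was at 63.3, 47.1, 49.5, 49.9 and 56.2 CPM in diestrus and at 25.2, 18.9, 31.2, 38.3 and 29.9 CPM in estrus. In ctrl it held 62.4, 74.3, 86.8, 70.5 and 90.7 CPM in diestrus and 68.0, 57.9, 60.8, 52.7 and 66.9 CPM in estrus. FL1 fell by 0.89 ± 0.15 (SE, adjusted p = 0.000770) on the log2 scale in estrus with no overlap, while in ctrl the log2FC was -0.33 ± 0.12 (SE). The test of the difference between these gave a log2FC of -0.56 ± 0.20 (SE) and did not pass (adjusted p = 0.275).

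Lox, Loxl1 and Loxl2, genes of enzymes that cross-link collagen and elastin, rose in estrus in both lines. Of the genes described here Lox had the largest log2FC between the stages in each line. Loxl3 and Loxl4, listed with the elastic fibre partners below, were not among the genes called between the stages by edgeR. Lox, lysyl oxidase, held 12.8, 11.9, 11.9, 8.90 and 8.32 CPM in ctrl in diestrus and 38.3, 67.5, 41.4, 78.5 and 110.1 CPM in estrus. In FL1 it stood at 9.90, 15.6, 9.78, 8.79 and 15.2 CPM in diestrus and at 54.5, 66.7, 51.9, 79.9 and 59.1 CPM in estrus. Each estrus library held more than the highest diestrus library of its line, and the difference was a log2FC of 2.63 ± 0.28 (SE, adjusted p = 0.000446) in ctrl, a 6.18-fold higher level, and a log2FC of 2.39 ± 0.17 (SE, adjusted p = 1.44e-07) in FL1, a 5.25-fold higher level. Lox in ctrl estrus 5 stood at 110.1 CPM, the highest of all libraries, and leaving out any library of ctrl moved its log2FC between 2.38 and 2.78. Loxl1 stood at 55.4, 68.4, 87.4, 58.5 and 67.6 CPM in ctrl in diestrus and at 83.7, 162, 110.1, 151 and 207 CPM in estrus. In FL1 Loxl1 was at 56.4, 56.8, 61.2, 52.5 and 64.3 CPM in diestrus and at 85.5, 121, 99.9, 124 and 118 CPM in estrus. It rose by a log2FC of 1.08 ± 0.21 (SE, adjusted p = 0.0174) in ctrl, where 1 estrus and 1 diestrus library crossed, and by a log2FC of 0.91 ± 0.11 (SE, adjusted p = 2.32e-05) in FL1 with none crossing. The ctrl call was lost without ctrl diestrus 4 (adjusted p = 0.0554). Loxl2, which acts on type IV collagen, was at 126, 152, 168, 126 and 144 CPM in ctrl in diestrus and at 183, 213, 170.4, 222 and 231 CPM in estrus. In FL1 it held 89.8, 106, 119.6, 78.7 and 104 CPM in diestrus and 246, 233, 211, 242 and 214 CPM in estrus. The stages did not overlap in either line, with a log2FC of 0.51 ± 0.12 (SE, adjusted p = 0.0382) in ctrl and a log2FC of 1.20 ± 0.10 (SE, adjusted p = 1.00e-06) in FL1. The ctrl call of Loxl2 was lost with the replicate number as a block and without ctrl diestrus 1, 2, 4 or 5 or ctrl estrus 2 or 4 (adjusted p up to 0.112).

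Of the elastic fibre itself, Fbn1, the gene of fibrillin, held 51.1, 55.0, 48.5, 38.2 and 59.5 CPM in ctrl in diestrus and 58.7, 58.2, 77.1, 82.1 and 86.1 CPM in estrus. In FL1 it stood at 44.2, 43.1, 44.5, 35.3 and 36.7 CPM in diestrus and at 43.6, 58.5, 60.1, 61.8 and 53.8 CPM in estrus. It rose by a log2FC of 0.44 ± 0.11 (SE, adjusted p = 0.0123) in FL1 with 1 estrus library among the diestrus values, and had a log2FC of 0.52 ± 0.15 (SE, adjusted p = 0.0843) in ctrl, where it passed in DESeq2 (adjusted p = 0.0381) and 1 fit of all 20 libraries (adjusted p = 0.0199). Eln, the gene of elastin, did not pass in any comparison, with a log2FC of 0.21 ± 0.16 in ctrl and 0.22 ± 0.17 in FL1 (SE) and levels of 19.999 to 44.2 CPM over the 20 libraries.

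Of the small leucine-rich proteoglycans, 1 of 5 was stronger expressed in estrus in ctrl and 3 of 5 in FL1 by edgeR. In ctrl 3 of 5 had an unadjusted p under 0.05, and DESeq2 called 2 and limma-voom 3, so the count in ctrl differed between the tools. The interaction was called for 0 of 5 by each of these tools, and for 0 at an unadjusted p under 0.05. Bgn, biglycan, stood at 208, 241, 248, 212 and 268 CPM in ctrl in diestrus and at 318, 359.9, 369, 372 and 552 CPM in estrus. In FL1 it was at 204, 193, 183, 180.4 and 254 CPM in diestrus and at 234, 253, 329, 330.4 and 299 CPM in estrus. Bgn rose by a log2FC of 0.74 ± 0.15 (SE, adjusted p = 0.0171) in ctrl and by a log2FC of 0.51 ± 0.11 (SE, adjusted p = 0.00591) in FL1. The ctrl call was lost without ctrl diestrus 4 (adjusted p = 0.0541). Dcn, decorin, was at 748, 469, 563, 388 and 654 CPM in ctrl in diestrus and at 750.3, 683, 1282, 992 and 663 CPM in estrus. In FL1 Dcn held 531, 579, 406, 432 and 521 CPM in diestrus and 608, 846, 745, 749 and 679 CPM in estrus. It rose by a log2FC of 0.55 ± 0.11 (SE, adjusted p = 0.00247) in FL1, where the stages did not overlap, and had a log2FC of 0.63 ± 0.21 (SE, adjusted p = 0.145) in ctrl, where they did. Lum, lumican, held 188, 191, 272, 178 and 295 CPM in ctrl in diestrus and 260.3, 339.5, 451, 373 and 336 CPM in estrus. In FL1 it stood at 159, 183, 147, 159 and 196 CPM in diestrus and at 173, 295, 297, 374 and 309 CPM in estrus. FL1 estrus 1 (173 CPM) lay among the diestrus libraries, and Lum rose by a log2FC of 0.77 ± 0.15 (SE, adjusted p = 0.00197) in FL1 and had a log2FC of 0.65 ± 0.17 (SE, adjusted p = 0.0699) in ctrl. In ctrl Lum passed in DESeq2, limma-voom, the filter of at least 1 count in total, 1 fit of all 20 libraries and with the replicate number as a block (adjusted p of 0.0129 to 0.0474), and Dcn in limma-voom and 1 fit of all 20 libraries (adjusted p of 0.0461 and 0.0344). Ogn, osteoglycin, whose end overlaps Cenpp, and Fmod, fibromodulin, were not called between the stages by edgeR, at a log2FC of 0.04 ± 0.12 and -0.39 ± 0.28 in ctrl and -0.32 ± 0.13 and -0.24 ± 0.25 in FL1 (SE). With the filter of at least 1 count in total Ogn passed in FL1 (adjusted p = 0.0333).

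Of the matrix glycoproteins, 3 of 4 were stronger expressed in estrus in FL1 and 0 of 4 in ctrl by edgeR, where 1, Fn1, had an unadjusted p under 0.05 and was called by DESeq2 and limma-voom. Fn1, fibronectin, stood at 63.5, 45.4, 42.3, 30.5 and 48.4 CPM in ctrl in diestrus and at 74.3, 52.7, 82.5, 109 and 70.8 CPM in estrus. The FL1 libraries were at 39.3, 46.9, 35.8, 26.7 and 39.6 CPM in diestrus and at 66.7, 74.7, 85.2, 68.1 and 67.3 CPM in estrus. In FL1 the stages did not overlap, at a log2FC of 0.94 ± 0.13 (SE, adjusted p = 0.000106), and in ctrl Fn1 had a log2FC of 0.75 ± 0.20 (SE, adjusted p = 0.0672). Postn, periostin, was at 17.2, 9.19, 28.1, 19.0 and 6.78 CPM in ctrl in diestrus and at 22.8, 14.8, 24.1, 23.9 and 9.51 CPM in estrus. In FL1 it held 10.2, 10.2, 9.15, 7.09 and 11.02 CPM in diestrus and 13.3, 15.0, 21.6, 27.1 and 29.3 CPM in estrus. In ctrl the diestrus libraries ran from 6.78 to 28.1 CPM, so that the log2FC of 0.25 ± 0.35 (SE) was within their spread, while in FL1 Postn rose by a log2FC of 1.16 ± 0.22 (SE, adjusted p = 0.00170). The interaction was not called for Fn1 (adjusted p = 0.821) or Postn (adjusted p = 0.433). Sparc held 2994, 4355, 4075, 3681 and 2449.8 CPM in ctrl in diestrus and 3342, 4178, 3298, 4118 and 5971 CPM in estrus. In FL1 it stood at 3371, 3132, 3366, 3172 and 3613 CPM in diestrus and at 3545, 3469, 4219, 4228 and 3813 CPM in estrus. Its stages overlapped in both lines and it was not called by edgeR, at a log2FC of 0.25 ± 0.19 (SE, adjusted p = 0.610) in ctrl and a log2FC of 0.21 ± 0.09 (SE, adjusted p = 0.134) in FL1. In FL1 limma-voom called it higher in estrus (adjusted p = 0.0439).

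Of the type VI collagens none was called higher in estrus. Of 6 tested genes 0 were stronger expressed in estrus in either line by edgeR, DESeq2 and limma-voom, and 0 had an unadjusted p under 0.05 in that direction, while 1 was weaker in ctrl and 2 were weaker in FL1. Col6a1 stood at 156, 124, 182, 136 and 195 CPM in ctrl in diestrus and at 160.3, 173, 217, 169.6 and 144 CPM in estrus. In FL1 it was at 164, 149, 141, 131 and 155 CPM in diestrus and at 119, 119, 155, 137 and 152 CPM in estrus. The stages overlapped, and Col6a1, Col6a2 and Col6a3 had a log2FC of 0.12 ± 0.14, -0.03 ± 0.12 and 0.05 ± 0.18 in ctrl and of -0.12 ± 0.10, 0.21 ± 0.11 and 0.24 ± 0.12 in FL1 (SE). Col6a4, Col6a5 and Col6a6, further chains of the same collagen, lie next to each other on the - strand of chromosome 9. Col6a4 was at 55.1, 50.6, 42.3, 37.2 and 66.2 CPM in ctrl in diestrus and at 30.1, 19.2, 37.4, 30.7 and 17.6 CPM in estrus. In FL1 it held 50.4, 51.6, 45.0, 45.7 and 44.1 CPM in diestrus and 21.1, 20.4, 26.8, 16.1 and 17.7 CPM in estrus. It fell by 0.89 ± 0.21 (SE, adjusted p = 0.0417) on the log2 scale in ctrl, where 1 library of each stage crossed, and by 1.21 ± 0.13 (SE, adjusted p = 1.02e-05) in FL1, where none did. The ctrl call was lost with the replicate number as a block (adjusted p = 0.109) and without ctrl diestrus 1, 2, 3 or 5 or ctrl estrus 1, 2 or 4 (adjusted p up to 0.0935). Col6a6 held 6.81, 7.40, 9.48, 4.12 and 6.01 CPM in ctrl in diestrus and 5.64, 5.47, 5.36, 6.23 and 5.81 CPM in estrus. In FL1 Col6a6 stood at 24.4, 18.1, 27.6, 15.0 and 6.51 CPM in diestrus and at 3.68, 3.01, 7.77, 5.03 and 5.25 CPM in estrus. In FL1 it fell by 1.87 ± 0.33 (SE, adjusted p = 0.000964) on the log2 scale in estrus, with FL1 diestrus 5 down at the level of estrus, and in ctrl it had a log2FC of -0.25 ± 0.24 (SE, adjusted p = 0.703). Col6a5 spread from 1.65 to 39.6 CPM within ctrl in diestrus alone, and did not pass in any comparison.

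Among the collagens that sit on fibrils (FACIT), Col16a1 stood at 29.9, 35.4, 34.8, 40.2 and 35.4 CPM in ctrl in diestrus and at 52.2, 68.8, 75.0, 58.0 and 59.5 CPM in estrus. In FL1 it was at 42.0, 31.2, 35.8, 25.5 and 39.4 CPM in diestrus and at 49.2, 50.4, 58.1, 69.8 and 49.3 CPM in estrus. It was higher in estrus without overlap in both lines, by a log2FC of 0.84 ± 0.12 (SE, adjusted p = 0.00387) in ctrl and a log2FC of 0.67 ± 0.14 (SE, adjusted p = 0.00359) in FL1. Col12a1 was at 5.96, 7.68, 11.9, 7.25 and 13.6 CPM in ctrl in diestrus and at 13.2, 17.1, 11.2, 20.6 and 16.4 CPM in estrus. In FL1 it held 12.6, 8.39, 10.41, 9.36 and 8.68 CPM in diestrus and 12.1, 13.1, 14.2, 18.6 and 17.9 CPM in estrus. It rose by a log2FC of 0.62 ± 0.18 (SE, adjusted p = 0.0277) in FL1, a call lost with the replicate number as a block, in 1 fit of all 20 libraries, and without FL1 diestrus 2, 4 or 5 or FL1 estrus 4 or 5 (adjusted p up to 0.0783), and had a log2FC of 0.77 ± 0.25 (SE, adjusted p = 0.138) in ctrl, where it passed in 1 fit of all 20 libraries (adjusted p = 0.0377). Of the network collagens, Col8a1, known from vessel walls, held 12.0, 12.3, 8.73, 4.78 and 20.03 CPM in ctrl in diestrus and 14.9, 18.2, 13.6, 16.1 and 32.6 CPM in estrus. In FL1 it stood at 11.2, 11.01, 11.5, 8.51 and 8.01 CPM in diestrus and at 14.3, 17.9, 20.9, 18.2 and 18.9 CPM in estrus. FL1 rose by a log2FC of 0.84 ± 0.16 (SE, adjusted p = 0.00210) without overlap, and ctrl, in which ctrl estrus 5 stood at 32.6 CPM, had a log2FC of 0.71 ± 0.33 (SE, adjusted p = 0.332). Among the other collagens Col26a1 was the strongest expressed. It stood at 11.8, 20.98, 26.9, 22.2 and 27.4 CPM in ctrl in diestrus and at 6.04, 9.79, 11.6, 9.81 and 16.7 CPM in estrus. The FL1 libraries were at 12.5, 17.8, 14.4, 14.04 and 16.5 CPM in diestrus and at 10.5, 4.66, 9.45, 14.6 and 11.7 CPM in estrus. Col26a1 did not pass between the stages, at a log2FC of -1.02 ± 0.27 (SE, adjusted p = 0.0672) in ctrl and a log2FC of -0.56 ± 0.23 (SE, adjusted p = 0.107) in FL1, and in ctrl it passed in DESeq2, limma-voom, the filter of at least 1 count in total, 1 fit of all 20 libraries and the fit with the replicate number as a block (adjusted p of 0.00915 to 0.0233).

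The stage differences of the lines were correlated across genes. Over the 43 genes tested in both, the log2FC of ctrl and of FL1, which share no library, had a Pearson correlation of 0.83 and a Spearman correlation of 0.81 across genes, beside 0.58 and 0.38 over all 12994 genes tested in both. The 13 genes called in both lines all changed in the same direction. Genes are not independent replicates, so these correlations are a description.

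Ratios between collagen chains, of the same or of different types, did not all stay the same between the stages. The following ratios were chosen after their values were seen and are given without a test. Col1a1 stood to Col1a2 as 0.540 ± 0.0620 in ctrl in diestrus and 0.737 ± 0.138 in ctrl in estrus, and as 0.449 ± 0.0459 and 0.655 ± 0.0647 in FL1 (mean ratio of CPM ± SD, n = 5). In FL1 the highest diestrus ratio (0.518) lay below the lowest estrus ratio (0.599), and in ctrl the stages overlapped. Col3a1 stood to Col1a2 as 0.690 ± 0.0561 and 1.08 ± 0.0814 in ctrl and as 0.692 ± 0.0547 and 1.17 ± 0.121 in FL1, so that the CPM of Col3a1 exceeded that of Col1a2 on average in estrus. By contrast Col4a1 to Col4a2 stayed at 1.91 ± 0.0652 and 1.99 ± 0.147 in ctrl and at 1.91 ± 0.0709 and 2.03 ± 0.199 in FL1. Col11a1 to Col5a1 was 1.08 ± 0.172 in ctrl in diestrus and 0.373 ± 0.105 in ctrl in estrus, and 1.66 ± 0.594 and 0.448 ± 0.136 in FL1. Col5a1 to Col5a2 was 1.28 ± 0.196 and 0.988 ± 0.145 in ctrl and 1.31 ± 0.0853 and 0.944 ± 0.128 in FL1. Col6a1 to Col6a2 was 1.08 ± 0.132 and 1.22 ± 0.175 in ctrl and 1.21 ± 0.129 and 0.948 ± 0.0971 in FL1. Col6a3 to Col6a2 was 0.871 ± 0.138 and 0.964 ± 0.366 in ctrl and 0.839 ± 0.133 and 0.844 ± 0.0960 in FL1.

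**Figure D3:**
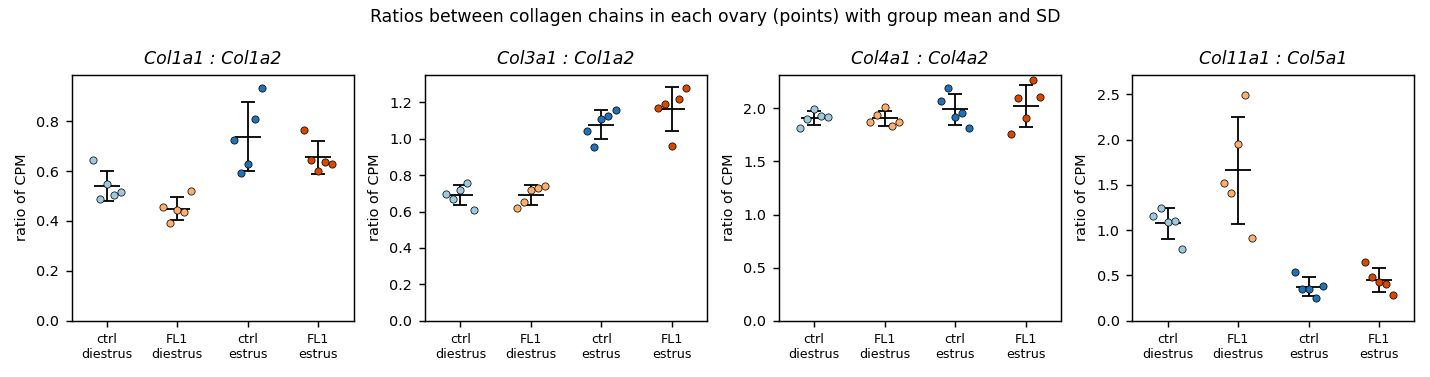
Ratio of CPM between the chains named above each panel (y axis, linear from 0) in the 20 ovaries by group (x axis); points are libraries, the mark is the mean and the bars the SD of 5 libraries. The ratio of Col3a1 to Col1a2 is higher in estrus and that of Col11a1 to Col5a1 lower, while Col4a1 to Col4a2 stays near 1.91 to 2.03.

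The second question of the design is how FL1 differs from ctrl within a stage. The lines differed in few of these genes. In estrus, Col4a4 was weaker expressed in FL1 and 0 genes were stronger expressed by edgeR, of 45 tested, where 1.26% of all 13374 tested genes were weaker and 1.07% stronger expressed. An unadjusted p under 0.05 for a stronger expression was found in 0 of them, limma-voom called 0 and DESeq2 called 1, Col24a1, at 0.752 to 1.71 CPM in FL1 and 0 to 0.189 CPM in ctrl. In diestrus, Olfml2b, Col4a4 and Loxl2 were weaker and Col6a6 and Col11a1 stronger expressed in FL1, of 45 tested, where 1.82% and 2.29% of all 13259 tested genes were. The fibril collagens Col1a1, Col1a2 and Col3a1 were not among them in either stage. Libraries of the lines did not overlap in 1 gene of 45 in estrus, and in diestrus in 2 genes of 45, beside 4.88% and 5.45% of all tested genes. The median log2FC of the tested genes, FL1 against ctrl, was -0.19 in estrus and -0.18 in diestrus beside -0.01 over all tested genes in each stage, with 37 of 45 and 36 of 45 values below 0. Of the marker genes of 12 cell types, 1 of 5 tested granulosa genes (Foxl2), 1 of 4 luteal (Lhcgr) and 1 of 4 macrophage genes (Cd68) were stronger expressed in FL1 in diestrus. The median log2FC of these lists was 0.46, 0.09 and -0.19. In the other direction, 1 luteal and 1 macrophage gene had an unadjusted p under 0.05. For macrophage genes DESeq2 called 1 lower, and limma-voom called 0 in either direction. The paper's sequencing had Foxl2 and Lhcgr higher in FL1 in diestrus, and its qPCR found Lhcgr higher but not Foxl2. In estrus 1 of 5 surface epithelium genes (Upk3b) was stronger expressed in FL1 by edgeR. All 5 had an unadjusted p under 0.05 in that direction, at a median log2FC of 0.69. Their summed CPM was 105 to 183 in FL1 and 69.2 to 93.4 in ctrl. An unadjusted p under 0.05 for a lower level in FL1 in estrus was found in 3 of 4 macrophage and 2 of 5 endothelial genes. For a higher level it was found in 1 granulosa, 1 luteal and 1 stromal fibroblast gene. The part of these markers in the values was not tested. The 5 calls in diestrus became 2 without FL1 diestrus 1, 3 or 4 and 3 without ctrl diestrus 2.

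In Col4a4 the FL1 ovaries in estrus, at 18.9 to 38.3 CPM, lay below all ctrl ovaries in estrus, at 52.7 to 68.0 CPM, a log2FC of -1.09 ± 0.16 (SE, adjusted p = 0.00174). In diestrus the FL1 ovaries held 47.1 to 63.3 CPM and the ctrl ovaries 62.4 to 90.7 CPM, with FL1 diestrus 1 just above ctrl diestrus 1, at a log2FC of -0.53 ± 0.12 (SE, adjusted p = 0.0204). The estrus call held in all 10 fits that left out a library and in the 7 other settings, and the diestrus call was lost without FL1 diestrus 3 or 4 (adjusted p up to 0.0587). Col4a3, which starts next to Col4a4 and whose end overlaps C430014B12Rik on the other strand, was close to the floor of counting at 0.0946 to 3.98 CPM, which is 1 to 30 counts, and had a log2FC of -0.29 ± 0.63 (SE, adjusted p = 0.868) in diestrus. Col4a1 and Col4a2 were not called between the lines, at a log2FC of -0.22 ± 0.13 and -0.25 ± 0.14 in estrus and -0.18 ± 0.11 and -0.18 ± 0.10 in diestrus (SE).

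Olfml2b, a secreted protein of the olfactomedin family that lies in the matrix (chromosome 1, bases 170644532 to 170682789, + strand), was at 60.2, 77.2, 82.8, 81.1 and 67.6 CPM in ctrl in diestrus and at 75.6, 64.8, 48.1, 52.1 and 65.9 CPM in estrus. In FL1 it held 28.8, 34.5, 40.4, 27.1 and 36.4 CPM in diestrus and 48.3, 50.4, 86.0, 82.4 and 80.7 CPM in estrus. In diestrus every FL1 library lay below every ctrl library, and Olfml2b fell by 1.14 ± 0.13 (SE, adjusted p = 0.000156) on the log2 scale, a 2.21-fold lower level. In estrus the lines overlapped, at a log2FC of 0.18 ± 0.18 (SE, adjusted p = 0.690). Within FL1 it was stronger expressed in estrus, by a log2FC of 1.06 ± 0.17 (SE, adjusted p = 0.000399), without overlap, and within ctrl it had a log2FC of -0.27 ± 0.14 (SE, adjusted p = 0.378). It was the 1 gene of the 46 tested here whose line difference depended on the stage, at a log2FC of 1.33 ± 0.23 (SE) (adjusted p = 0.0351), where 0.0565% of all 14154 tested genes passed that test. This call was lost in 10 of 20 fits that left out 1 library, namely FL1 diestrus 1, 3 or 4, FL1 estrus 4 or 5, ctrl diestrus 2, 3 or 4, or ctrl estrus 3 or 4 (adjusted p up to 0.1003), with the log2FC between 1.24 and 1.43.

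Loxl2 in diestrus ran from 78.7 to 119.6 CPM in FL1 and from 125.8 to 168 CPM in ctrl, so that the lines did not overlap, at a log2FC of -0.52 ± 0.12 (SE, adjusted p = 0.0209). The call was lost without FL1 diestrus 1 or 4 or ctrl diestrus 2 (adjusted p up to 0.0585). In estrus the FL1 ovaries held 211 to 246 CPM and the ctrl ovaries 170.4 to 231 CPM, with a log2FC of 0.17 ± 0.10 (SE, adjusted p = 0.474). Its interaction was a log2FC of 0.69 ± 0.16 (SE, adjusted p = 0.107), which passed in DESeq2 (adjusted p = 0.0150) and limma-voom (adjusted p = 0.0429). Col6a6 in diestrus stood at 15.0 to 27.6 CPM in 4 FL1 ovaries and at 6.51 CPM in the other, against 4.12 to 9.48 CPM in ctrl, with a log2FC of 1.43 ± 0.32 (SE, adjusted p = 0.0209). It was lost in limma-voom (adjusted p = 0.0962) and without FL1 diestrus 1 or 3 (adjusted p up to 0.0638). Its interaction was a log2FC of -1.62 ± 0.43 (SE, adjusted p = 0.129), and it passed in DESeq2 (adjusted p = 0.0379). Col11a1 in diestrus was at 56.4 to 98.3 CPM in FL1 and at 48.4 to 62.2 CPM in ctrl, with a log2FC of 0.51 ± 0.13 (SE, adjusted p = 0.0475), and this call was kept in 1 of 10 fits that left out a library, the one without FL1 diestrus 5 (adjusted p up to 0.127 in the others), and was lost in limma-voom and in 1 fit of all 20 libraries.

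Next to Col4a4, the genes with the smallest p between the lines in estrus were all weaker expressed in FL1 without passing. Col15a1 stood at 63.0 ± 13.1 CPM in FL1 and 89.8 ± 18.3 CPM in ctrl (adjusted p = 0.133), Col5a3 at 2.57 ± 1.20 and 5.94 ± 2.39 CPM (adjusted p = 0.135), Bgn at 289 ± 43.9 and 394 ± 90.9 CPM (adjusted p = 0.156) and Fbn1 at 55.6 ± 7.33 and 72.5 ± 13.2 CPM (adjusted p = 0.183; SD, n = 5). For the interaction these were, after Olfml2b, Loxl2 and Col6a6, Col4a4 with a log2FC of -0.56 ± 0.20 (SE, adjusted p = 0.275) and Col18a1 with a log2FC of -0.47 ± 0.22 (SE, adjusted p = 0.415). Over the 44 genes tested in both stages, the line log2FC in estrus and in diestrus, which share no library, had a Pearson correlation of 0.21 and a Spearman correlation of 0.18 across genes, beside 0.51 and 0.22 over all 12968 genes.

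**Figure D4:**
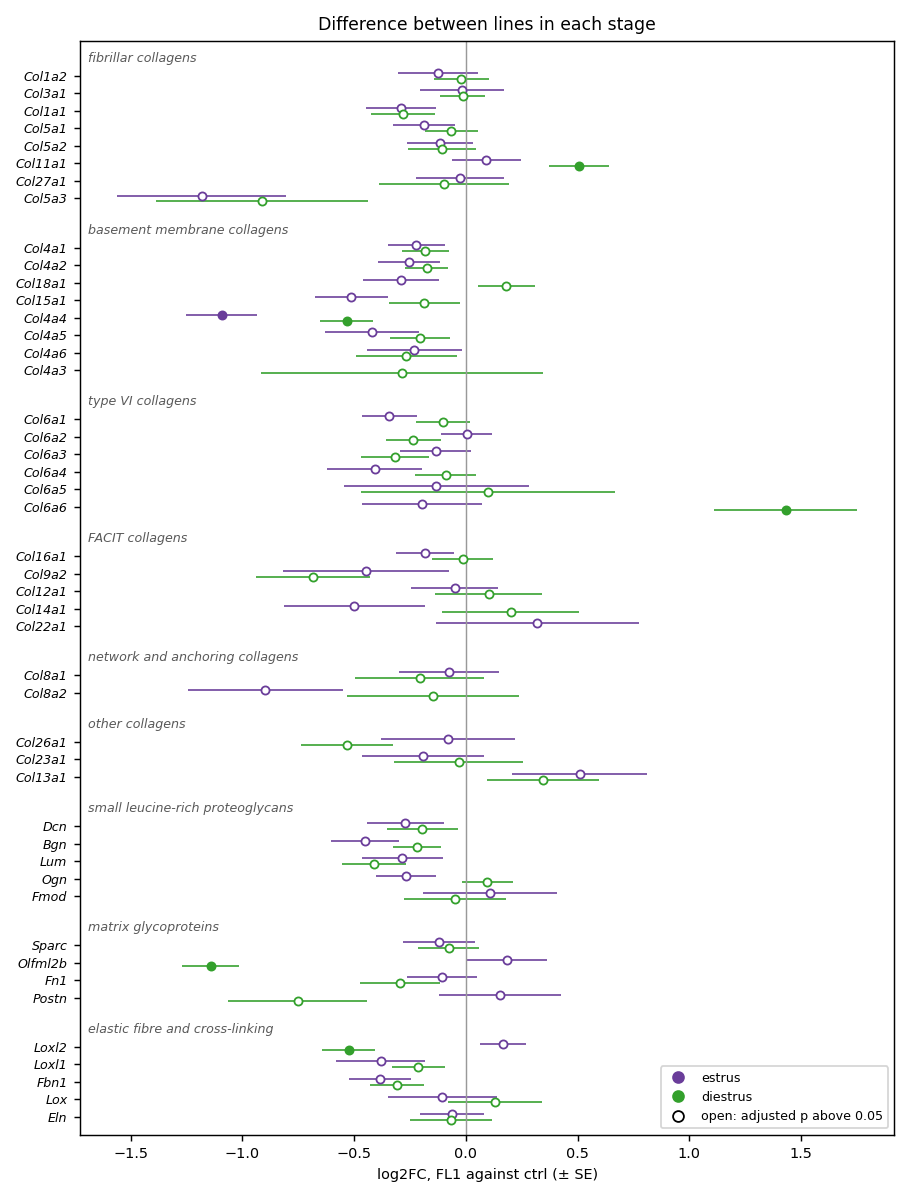
Log2FC of FL1 against ctrl (x axis) for each tested gene (y axis, in role groups), with the SE as bars, in estrus (purple) and diestrus (green); filled points passed an adjusted p of 0.05. Most points lie slightly left of 0, with 37 of 45 values below 0 in estrus and 36 of 45 in diestrus, and 1 filled point in estrus and 5 in diestrus.

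Of 26 listed genes that fold and trim collagen, 11 of 23 tested were stronger and 2 weaker expressed in estrus in FL1, with a median log2FC of 0.25, beside 7.42% and 8.49% of all tested genes. In ctrl, where 1.78% of all tested genes were stronger expressed, 1 of 22 was (Fkbp10, a log2FC of 0.62 ± 0.11 (SE, adjusted p = 0.0133)), with a median of 0.24. In ctrl 11 of 22 had an unadjusted p under 0.05 for a higher level in estrus, and the interaction was called for 0 of 23 by edgeR, DESeq2 and limma-voom, with an unadjusted p under 0.05 in 2. Creb3l1, a transcription factor that drives collagen secretion, rose by a log2FC of 0.72 ± 0.14 (SE, adjusted p = 0.00212) in FL1. Serpinh1, the collagen chaperone HSP47, rose by a log2FC of 0.46 ± 0.09 (SE, adjusted p = 0.00217). The prolyl hydroxylase genes P4hb, P3h1 and P3h3 rose by a log2FC of 0.38 ± 0.07, 0.50 ± 0.10 and 1.04 ± 0.23 (SE), with adjusted p of 0.00186, 0.00184 and 0.00565. Bmp1, which cuts the end off procollagen, rose by a log2FC of 0.54 ± 0.12 (SE, adjusted p = 0.00661). Its enhancers parted, since Pcolce2 rose by a log2FC of 2.20 ± 0.42 (SE, adjusted p = 0.00175) and Pcolce fell by 0.79 ± 0.10 (SE, adjusted p = 4.70e-05) on the log2 scale. Between the lines, Pcolce2 was stronger expressed in FL1 in estrus (log2FC of 2.80 ± 0.55 (SE, adjusted p = 0.0158)), 1 of 23 tested, beside 1.07% of all tested genes. In diestrus Plod3 was stronger and Adamts2 and P3h2 were weaker expressed, at a log2FC of 0.36 ± 0.08 (SE, adjusted p = 0.0179), a log2FC of -0.59 ± 0.14 (SE, adjusted p = 0.0334) and a log2FC of -0.78 ± 0.20 (SE, adjusted p = 0.0401). This was 1 and 2 of 23 tested, beside 2.29% and 1.82% of all tested genes.

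Of the partners of the basement membrane, 0 of 17 tested genes were called between the stages in ctrl by edgeR, and 2 of 17 were higher and 2 lower in estrus in FL1, beside 7.42% and 8.49% of all tested genes. Sparcl1, a relative of Sparc, rose in estrus in FL1 by a log2FC of 0.86 ± 0.13 (SE, adjusted p = 0.000326) and Lama1 by a log2FC of 0.37 ± 0.09 (SE, adjusted p = 0.00882), while Lama5 fell by 1.67 ± 0.34 (SE, adjusted p = 0.00279) and Lamc3 by 0.88 ± 0.19 (SE, adjusted p = 0.00415) on the log2 scale. In ctrl, where edgeR called 0, an unadjusted p under 0.05 was found for 3 genes higher and 1 lower in estrus, DESeq2 called 2 higher and 1 lower, and limma-voom called 0. Between the lines, Hspg2, the gene of perlecan, and Sparcl1 were weaker expressed in FL1 in both stages, Hspg2 at a log2FC of -0.69 ± 0.16 (SE, adjusted p = 0.0401) in estrus and a log2FC of -0.63 ± 0.14 (SE, adjusted p = 0.0207) in diestrus, and Sparcl1 at a log2FC of -0.75 ± 0.18 (SE, adjusted p = 0.0430) and a log2FC of -1.01 ± 0.13 (SE, adjusted p = 0.000670). Lamc3 was stronger expressed in FL1 in diestrus (log2FC of 0.80 ± 0.19 (SE, adjusted p = 0.0279)). In estrus 0 of 17 were thus stronger and 2 weaker expressed in FL1, beside 1.07% and 1.26% of all tested genes. In diestrus 1 of 17 was stronger and 2 weaker expressed, beside 2.29% and 1.82%. The median log2FC of the list between the lines was -0.26 in estrus and -0.11 in diestrus.

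Of 27 partners of the elastic fibre and other matrix genes, 3 of 26 were higher and 1 lower in estrus in ctrl, beside 1.78% and 1.06% of all tested genes. In FL1 4 of 25 were higher and 4 lower, beside 7.42% and 8.49%. Vcan, versican, rose in both lines, at a log2FC of 1.09 ± 0.13 (SE, adjusted p = 0.000725) in ctrl and a log2FC of 1.08 ± 0.17 (SE, adjusted p = 0.000456) in FL1. The microfibril genes Mfap2 and Mfap5 rose in both as well, Mfap2 at a log2FC of 0.77 ± 0.13 (SE, adjusted p = 0.00742) and a log2FC of 0.47 ± 0.09 (SE, adjusted p = 0.00154) and Mfap5 at a log2FC of 1.20 ± 0.17 (SE, adjusted p = 0.00346) and a log2FC of 0.61 ± 0.15 (SE, adjusted p = 0.0118). Emilin2 rose in FL1 by a log2FC of 0.90 ± 0.22 (SE, adjusted p = 0.0117). Fbln5, a fibulin of the elastic fibre, had a log2FC of -0.48 ± 0.14 (SE, adjusted p = 0.0273) in FL1. Ecm1, Ltbp1 and Ltbp4 fell in FL1 as well, by 1.61 ± 0.17, 0.63 ± 0.10 and 0.33 ± 0.08 on the log2 scale (SE), with adjusted p of 6.84e-06, 0.000456 and 0.0113. Efemp1, the gene of fibulin-3, was weaker expressed in FL1 than in ctrl in both stages, at a log2FC of -0.999 ± 0.20 (SE, adjusted p = 0.0171) in estrus and a log2FC of -2.02 ± 0.24 (SE, adjusted p = 0.000239) in diestrus. In estrus 3 of 26 genes were weaker expressed in FL1, beside 1.26% of all tested genes. The others were Mfap2 at a log2FC of -0.66 ± 0.11 (SE, adjusted p = 0.00623) and Mfap4 at a log2FC of -1.14 ± 0.21 (SE, adjusted p = 0.0127). In ctrl Efemp1 was the gene lower in estrus, at a log2FC of -1.14 ± 0.26 (SE, adjusted p = 0.0330). In diestrus 2 of 25 were stronger expressed in FL1, Ecm1 at a log2FC of 1.22 ± 0.28 (SE, adjusted p = 0.0244) and Ltbp1 at a log2FC of 0.64 ± 0.16 (SE, adjusted p = 0.0436), and 1 was weaker. Of all tested genes 2.29% and 1.82% were.

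Of 10 collagen receptors, 8 were tested, and 1 was higher in estrus in ctrl, beside 1.78% of all tested genes, and 2 higher and 1 lower in FL1, beside 7.42% and 8.49%. Ddr2, a receptor tyrosine kinase for fibrillar collagen, rose in estrus in ctrl by a log2FC of 0.52 ± 0.11 (SE, adjusted p = 0.0200). In FL1 the integrin gene Itga1 rose by a log2FC of 0.41 ± 0.13 (SE, adjusted p = 0.0498) and Mrc2, which takes up collagen fragments, by a log2FC of 0.78 ± 0.26 (SE, adjusted p = 0.0497), while Itga2 fell by 0.81 ± 0.18 (SE, adjusted p = 0.00638) on the log2 scale. Between the lines edgeR, DESeq2 and limma-voom called 0 of 8 receptors in either stage, and an unadjusted p under 0.05 was found for 0 in estrus and for 2 in diestrus, both higher in FL1.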

How the data were processed

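Ovaries of 20 mice, 5 libraries for each of 2 lines and 2 stages, were measured by 3' mRNA-Seq (QuantSeq forward kit). The authors aligned trimmed reads with STAR to GRCm38 and deposited 1 table per library of unnormalized counts per Ensembl gene. The submitters' processing notes also name Cuffdiff, without its role. The counting tool and its strand setting are not given in the sources used here. Groups came from the titles and characteristics. The source name reads FL1 for all libraries and was not used.

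Genes were named by GENCODE M21, which holds 54809 of the identifiers and lacks 29. The main test was the quasi-likelihood test of edgeR 4.0.16 in R 4.3.3 on the deposited counts, with TMM scaling, filterByExpr at a minimum count of 10, and Benjamini-Hochberg adjustment over all tested genes at 0.05. Lines were compared within each stage, stages within each line (10 libraries each), and the interaction over 20 libraries. CPM were scaled by TMM over 20 libraries. The log2 CPM used for correlations between libraries had a prior count of 2. On simulated counts with 200 genes changed by 1.5 on the log2 scale, more than most differences described here, edgeR recovered 87% in the estrus comparison of the lines and 79% in the ctrl comparison of the stages. Of edgeR's calls there, 8 of 182 and 6 of 164 were unchanged genes, and of limma-voom's 9 of 181 and 7 of 166. Of DESeq2's calls 28 of 210 and 25 of 195 were unchanged genes. The counts were drawn with edgeR's own estimates of the spread, on genes that passed its filter. They therefore cannot rank the tools on the real counts. Calls made by DESeq2 alone are to be read with care. The paper's own test was DESeq2, an alternative here.

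The role groups, the 4 lists of partner genes and the 12 marker lists (stromal fibroblast, theca, granulosa, luteal, smooth muscle, endothelial, macrophage, surface epithelium, oviduct, fat, blood, oocyte) as well as the genes themselves were chosen with earlier results of these data known. Each gene called in any comparison and the strongest expressed gene of each role was named with its value in every library, and the 5 genes with the smallest p where a comparison called fewer than 5. Of the partner lists, all called genes, or the 8 with the smallest adjusted p, were named. Single values were compared by exact two-sided permutation over 252 splits. Alternatives were DESeq2 1.42.0, limma-voom (limma 3.58.1) with sample weights, DESeq2 size factors (RLE), 2 other filters on low counts, a fit on 20 libraries at once, a block by replicate number, and fits without 1 library. In 40 pairs of libraries of a group the chi-square per gene was 6.32 to 46.6, so no 2 libraries of a group were copies of each other. Pairs between groups were not compared. Counting floors cover counting error only, since no molecular identifiers are named. Python 3.11.15 with pandas 2.3.3, scipy 1.17.1 and matplotlib 3.10.9 served for the other steps.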

Additional observations from a re-analysis of the deposited data

Results flagged for a closer look

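Of 29 genes checked in each of the 4 groups, 116 sets of 5 libraries, 4 had a library far from the others, where the criterion passes about 1 in 20 sets by chance. Bgn stood at 552.3 CPM in ctrl estrus 5 and at 318 to 373 CPM in the other 4 ctrl libraries in estrus. Col8a1 was also highest in ctrl estrus 5, at 32.6 CPM, with 13.6 to 18.2 CPM in the others. Col11a1 was lowest in ctrl diestrus 5 at 48.4 CPM, with 58.8 to 62.2 CPM in the others. Col4a1 was lowest in FL1 diestrus 4 at 345.5 CPM, with 421 to 448 CPM in the others.

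The difference between FL1 and ctrl in Olfml2b was not the same in estrus and diestrus, with an interaction log2FC of 1.33 ± 0.23 (SE, adjusted p = 0.0351 by edgeR, n = 5 libraries per group in a fit across all genes). The call was lost in 10 of 20 fits that left out 1 library, with the adjusted p up to 0.1003 and the log2FC between 1.24 and 1.43.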

How the results depend on the processing

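For the 46 calls of single genes, 791 values under other settings kept the direction, 719 of them below an adjusted p of 0.05 and 72 above it, with 0 reversed. By tool, 46 of 46 were kept in DESeq2, with RLE factors and under both other filters on low counts, 44 in limma-voom and 42 of 45 in 1 fit of all 20 libraries. The number of genes called moved by more than 1.5 times in some settings. For FL1 against ctrl in estrus the 1 call became 2 in DESeq2 and with at least 1 count in total, both times by Col24a1, and 2 with the replicate number as a block, by Col15a1. In diestrus 5 became 3 in limma-voom and 2 to 5 when a library was left out (2 without FL1 diestrus 1, 3 or 4). For the stages in ctrl 14 became 22 in 1 fit of all 20 libraries and 9 (without ctrl diestrus 4) to 16 when a library was left out. There DESeq2 called 18 higher and 3 lower in estrus, and limma-voom 17 higher and 3 lower. For the interaction 1 became 3 in DESeq2, 2 in limma-voom and 0 to 1 when a library was left out. The replicate numbers of the labels did not pair the libraries (correlation of deviations -0.0953 to 0.126, 1 of 5 pairs above 0.1 in the comparison of the lines in estrus and 0 of 5 in the others), and at most 2 of 5 libraries correlated best with their own number. With the numbers as a block 41 of the 46 calls were kept, and the counts were 2 and 5 between the lines, 13 and 23 between the stages and 1 for the interaction. Depth limits the lowest genes: 3 counts, the floor used here, were 0.290 to 0.501 CPM in a library, and Col22a1, Col24a1 and Col4a3 had at most 25, 24 and 30 counts.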
